A study of Mus musculus with 9 samples.

Results

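The 8 genes described here encode amino acid transporter subunits of the plasma membrane: Slc7a1, Slc7a5, Slc7a7, Slc7a8, Slc7a11, Slc3a2, Slc38a2 and Slc1a5. They were measured by RNA-seq in dendritic cells cultured from mouse bone marrow (BMDC), which serve as a model of the cells that present antigen to T cells. Of 9 libraries, 3 were from untreated cells, 3 from cells kept for 2 h with lysophosphatidic acid (LPA), a lipid that signals by way of receptors on the cell surface, and 3 from cells kept for 6 h with it. The labels give no strain, genotype, LPA dose or vehicle. Nor do they say whether replicates were separate animals or cultures, so the spread behind each p-value may be technical. The members were chosen by name as rows of the count table, taking the row with most counts where a symbol had several. Each symbol had exactly 1 row, so the counts did not decide which row was taken. The 8 genes and the gene lists below were themselves chosen with earlier results of these data known. Their called shares beside those of all genes are therefore descriptions only. All 8 passed the filter on low counts and are 8 of the 14363 genes tested.

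Amino acids cross membranes only through transporters, and most of these work in families with overlapping substrates. Slc3a2 (CD98, 4F2hc) is a single-pass glycoprotein that pairs by a disulfide bond with a light chain, which carries the substrate. Of its light chains, Slc7a11 (xCT) exchanges cystine for glutamate and feeds glutathione synthesis, Slc7a5 (LAT1) and Slc7a8 (LAT2) exchange large neutral amino acids such as leucine, and Slc7a7 (y+LAT1) exchanges cationic for neutral amino acids. Slc7a1 (CAT-1) carries arginine and lysine without a heavy chain, Slc38a2 (SNAT2) takes up small neutral amino acids with sodium, and Slc1a5 (ASCT2) exchanges glutamine and other neutral amino acids. In myeloid cells cystine, arginine and glutamine uptake are known for their links to redox state, nitric oxide and arginase pathways, and cytokine production.

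Totals per library ran from 29628817 to 84596899 estimated counts. On the first principal component, with 46.2% of the variance, the second 2 h library stood apart from the other two, and it was also the deepest. It was the 2 h library nearest to the 6 h mean for 8 of 8 transporters, so the 2 h change of each of the 8 is given with and without it. Other settings were followed for 43 genes, the 8 and those named by rule, without the genes most like each transporter. Of these 43, 39 kept their side of the threshold at 2 h without the second 2 h library. Slc43a2 was lost (adjusted p = 0.0839), and Pqlc2 (0.039), Gss (0.0437) and Ddit3 (0.0315) newly passed. Of the dendritic markers, 8 of 8 were tested. In untreated libraries Itgax had 1388, 1374 and 1320 CPM and Flt3 only 10.2, 15.2 and 14.5 CPM. The dendritic markers summed to 5700 to 6600.2 CPM in untreated libraries, 5986 to 6608 at 2 h and 5279 to 5755 at 6 h. Macrophage markers (8 of 8 tested) summed to 3671 to 3723, 3956 to 4025 and 3968 to 4173 CPM in the same order. They split at 6 h, with 3 higher (Csf1r, which makes up most of the sum, Cd68 and Mertk) and 4 lower (Adgre1, C1qa, C1qb and Fcgr1). The dendritic markers split too, with 1 higher at 6 h and 3 lower (Itgax, H2-Ab1 and Batf3). The higher one was Ccr7 (log2 fold change 0.42, adjusted p = 0.000504), and Itgax was at -0.34 (adjusted p = 7.6e-05). Called at 6 h were thus 4 of 8 dendritic markers, near the 52.0% of all genes, and 7 of 8 macrophage markers. Neutrophil markers summed to at most 18.3 CPM and mast cell and basophil markers to at most 10.9 CPM, with Tpsb2 at 0. The neutrophil sum was lowest at 6 h, at 6.91 to 8.67 CPM. B cell, T cell, NK cell and stromal markers summed to at most 1.56 CPM in any library, with Cd3g and Ncr1 at 0. The part of these shifts in the transporter results was not tested. In bulk RNA, fewer cells of a type and less RNA per cell cannot be told apart.

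Promoter sequence was taken from RefSeq (GRCm38.p6) as windows of 250 bases before to 50 bases after each start, in which 6 of the 8 genes matched. Slc7a5 and Slc1a5 had no entry. The windows were searched on both strands for the C/EBP-ATF response element TGATGNAA, through which ATF4 is known to act, the antioxidant response element core TGACNNNGC, bound by NRF2, the E-box CACGTG, bound by MYC and by TFEB, and the cAMP response element TGACGTCA. Of 32817 windows of the same length, 3.97%, 12.38%, 7.15% and 1.79% held them. The 150 bases upstream of the start are shown for the 4 genes whose RNA rose at 2 h and for Slc7a7, which did not pass the test at 2 h but whose window also holds a match. They run 5′ to 3′ on the gene's own strand, with matches that lie wholly within the bases shown in capitals.
Slc7a11, chr3:50443614-50443763, minus strand: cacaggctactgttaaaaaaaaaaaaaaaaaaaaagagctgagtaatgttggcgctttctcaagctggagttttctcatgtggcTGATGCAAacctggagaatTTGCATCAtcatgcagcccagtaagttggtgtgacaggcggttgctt
Slc38a2, chr15:96699729-96699878, minus strand: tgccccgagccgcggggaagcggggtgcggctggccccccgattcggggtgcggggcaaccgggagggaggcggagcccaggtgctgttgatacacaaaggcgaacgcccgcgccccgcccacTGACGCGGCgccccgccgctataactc
Slc7a1, first of 2 starts, chr5:148399905-148400054, minus strand: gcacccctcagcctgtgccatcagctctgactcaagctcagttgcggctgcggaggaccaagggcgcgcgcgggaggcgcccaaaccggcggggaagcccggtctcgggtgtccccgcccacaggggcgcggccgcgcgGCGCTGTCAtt
Slc3a2, chr19:8713898-8714047, minus strand: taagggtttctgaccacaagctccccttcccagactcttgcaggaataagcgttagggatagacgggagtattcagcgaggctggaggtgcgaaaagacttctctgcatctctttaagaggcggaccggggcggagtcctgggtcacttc
Slc7a7, first of 5 starts, chr14:54417945-54418094, minus strand: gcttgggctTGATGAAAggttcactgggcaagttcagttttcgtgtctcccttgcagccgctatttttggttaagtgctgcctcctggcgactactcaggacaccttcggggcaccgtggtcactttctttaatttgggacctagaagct

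Slc7a11 held 2 C/EBP-ATF elements, at -66 to -59 and, on the other strand, at -47 to -40 from the start. Only 23 of the 32817 windows (0.07%) held 2 or more. The first Slc7a7 start also had 2, at -141 to -134 and, across the start, at -1 to 6, the latter shared with the window of the second start. Slc38a2 held the antioxidant core at -27 to -19, and the first Slc7a1 start held it on the other strand at -11 to -3. Neither match has the A that follows this core in a longer form, which is in 3.04% of windows and in 0 of the 11 windows of these 6 genes. No match overlapped another element. None of the 4 elements was found in the windows of Slc3a2 or Slc7a8, which says only that these letters are not in these windows. The single Slc3a2 start, at 8713897, lies inside the annotated span of the gene (8706882 to 8723369, minus strand). Sequence before the 5′ end of that span was not searched. A match is a description of the sequence, and no binding was measured here.

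At 2 h, 4 of the 8 transporter genes rose, Slc7a11, Slc38a2, Slc7a1 and Slc3a2, by 1.35-fold to 1.74-fold, and 0 fell. At 6 h, 5 were below untreated cells, Slc7a5, Slc7a8, Slc7a1, Slc1a5 and Slc7a7, with Slc7a5 furthest at 0.323 of its untreated level, and 2 were above, Slc3a2 and Slc38a2. Between 2 h and 6 h 7 fell and 0 rose. Calls used edgeR's quasi-likelihood test with a Benjamini-Hochberg adjusted p under 0.05 over all genes tested. Against this stands a broad response of the whole transcriptome. Of all genes, 38.5% were called at 2 h (19.3% higher, 19.2% lower) and 52.0% at 6 h (26.4% higher, 25.7% lower). In the comparison of the times 48.7% were called (24.3% higher, 24.4% lower). The 8 genes had a median log2 fold change of 0.17 at 2 h, -0.32 at 6 h and -0.50 from 2 h to 6 h, where all genes had medians of -0.00099, 0.0073 and -0.0064. The 3 libraries of each group did not overlap for 5 of the 8 genes at 2 h, 7 at 6 h and 8 from 2 h to 6 h, against 48.2%, 63.0% and 58.9% of all genes. The 7 calls at 6 h became 4 without the second untreated library, since Slc7a1, Slc7a7 and Slc38a2 then missed the threshold at adjusted p of 0.0608, 0.101 and 0.0542. The comparisons with untreated cells share the untreated libraries.

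**Figure D1:**
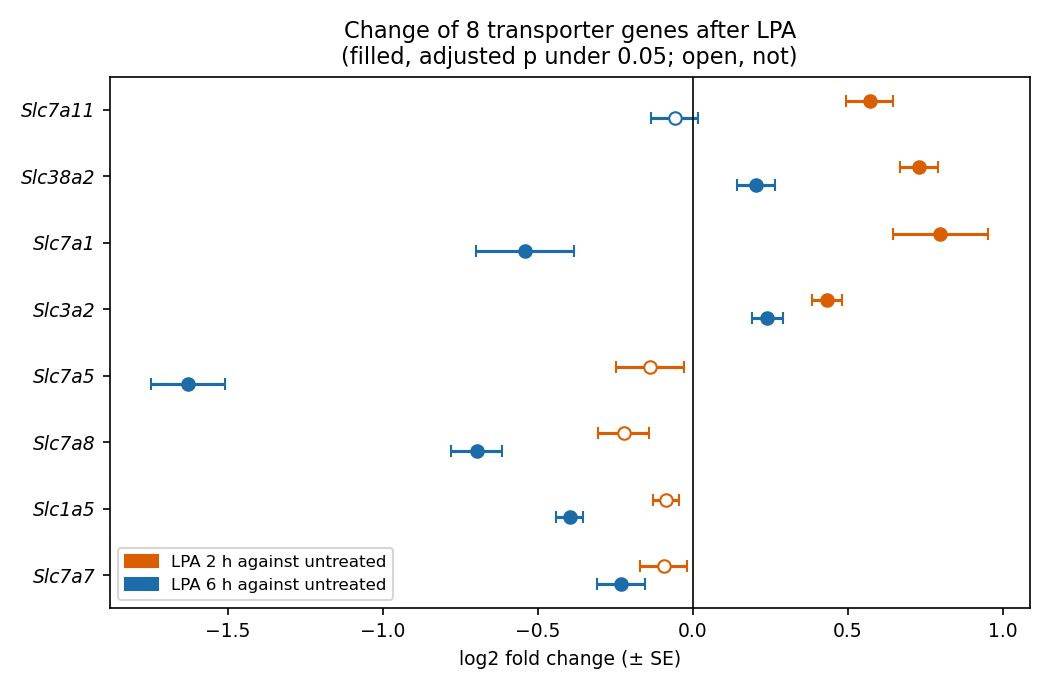
Log2 fold change of the 8 transporter genes after 2 h and 6 h of LPA against untreated cells, with the standard error of the fit as the bar. Filled points had an adjusted p under 0.05. Slc7a11, Slc38a2, Slc7a1 and Slc3a2 lie to the right of 0 at 2 h, and Slc7a5 lies furthest left at 6 h, at -1.63.

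Slc7a11, the cystine/glutamate exchanger (chr3:49892526-50443614 in GRCm38), was the most abundant of the 8 by counts, with 34107 to 121695 per library. It rose 1.48-fold at 2 h and was back at the untreated level at 6 h. Untreated libraries held 1109, 1083 and 1146 CPM (counts scaled to library size, with TMM factors), 2 h libraries 1694, 1438 and 1823, and 6 h libraries 1120.5, 1012 and 1071. All 2 h libraries were above every other library, and the untreated and 6 h libraries overlapped. The log2 fold change was 0.57 ± 0.08 (SE) at 2 h (adjusted p = 0.000104) and -0.06 ± 0.08 at 6 h (adjusted p = 0.536). From 2 h to 6 h the gene fell by 0.63 on the log2 scale (SE 0.08, adjusted p = 7.73e-05). Without the second 2 h library, the lowest of the 2 h libraries here, the change at 2 h was 0.66.

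Slc3a2, the heavy chain that Slc7a11 needs to reach the surface (chr19:8706882-8723369), rose at 2 h and stayed higher at 6 h. Its CPM were 373, 404 and 384 in untreated cells, 515, 510.3 and 543 at 2 h, and 437, 461 and 474 at 6 h. The 3 groups did not overlap, and the 6 h libraries lay between the other groups. The increase was 1.35-fold at 2 h (log2 0.43 ± 0.05, adjusted p = 2.45e-05) and 1.18-fold at 6 h (0.24 ± 0.05, adjusted p = 0.00125). Without the second 2 h library the 2 h change was 0.45. The fall from 2 h to 6 h, to 0.875 of the 2 h level, also passed (adjusted p = 0.00597).

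Slc38a2, the sodium-coupled transporter of small neutral amino acids whose transcript is a classical target of amino acid shortage (chr15:96687392-96699730), went the same way. It had 200.3, 198 and 210.2 CPM in untreated cells, 352, 300.2 and 358 CPM at 2 h, and 231, 235 and 235 CPM at 6 h. The groups did not overlap, and the 6 h libraries lay just above the untreated ones. It rose 1.66-fold at 2 h (log2 0.73 ± 0.06, adjusted p = 2.26e-06, and 0.81 without the second 2 h library). At 6 h it was 1.15-fold above untreated cells (0.20 ± 0.06, adjusted p = 0.0136), a call lost without the second untreated library (adjusted p = 0.0542).

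Slc7a1, the cationic amino acid transporter that brings in arginine (chr5:148327410-148399904), rose at 2 h and fell below its untreated level at 6 h. Untreated libraries had 33.6, 40.8 and 38.5 CPM, 2 h libraries 64.4, 55.6 and 76.7 CPM, and 6 h libraries 20.4, 28.4 and 28.2 CPM. No library of one group reached the range of another, although the 2 h values were spread widely. The change was 0.80 ± 0.15 at 2 h (1.74-fold, adjusted p = 0.00403), or 0.91 without the second 2 h library. At 6 h it was -0.54 ± 0.16 (0.686 of untreated, adjusted p = 0.0199). The 6 h call missed the threshold without the second or the third untreated library (adjusted p = 0.0608 and 0.0559) and without a filter on low counts (adjusted p = 0.0696). From 2 h to 6 h the level fell to 0.395 (log2 -1.34 ± 0.16, adjusted p = 0.000277).

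**Figure D2:**
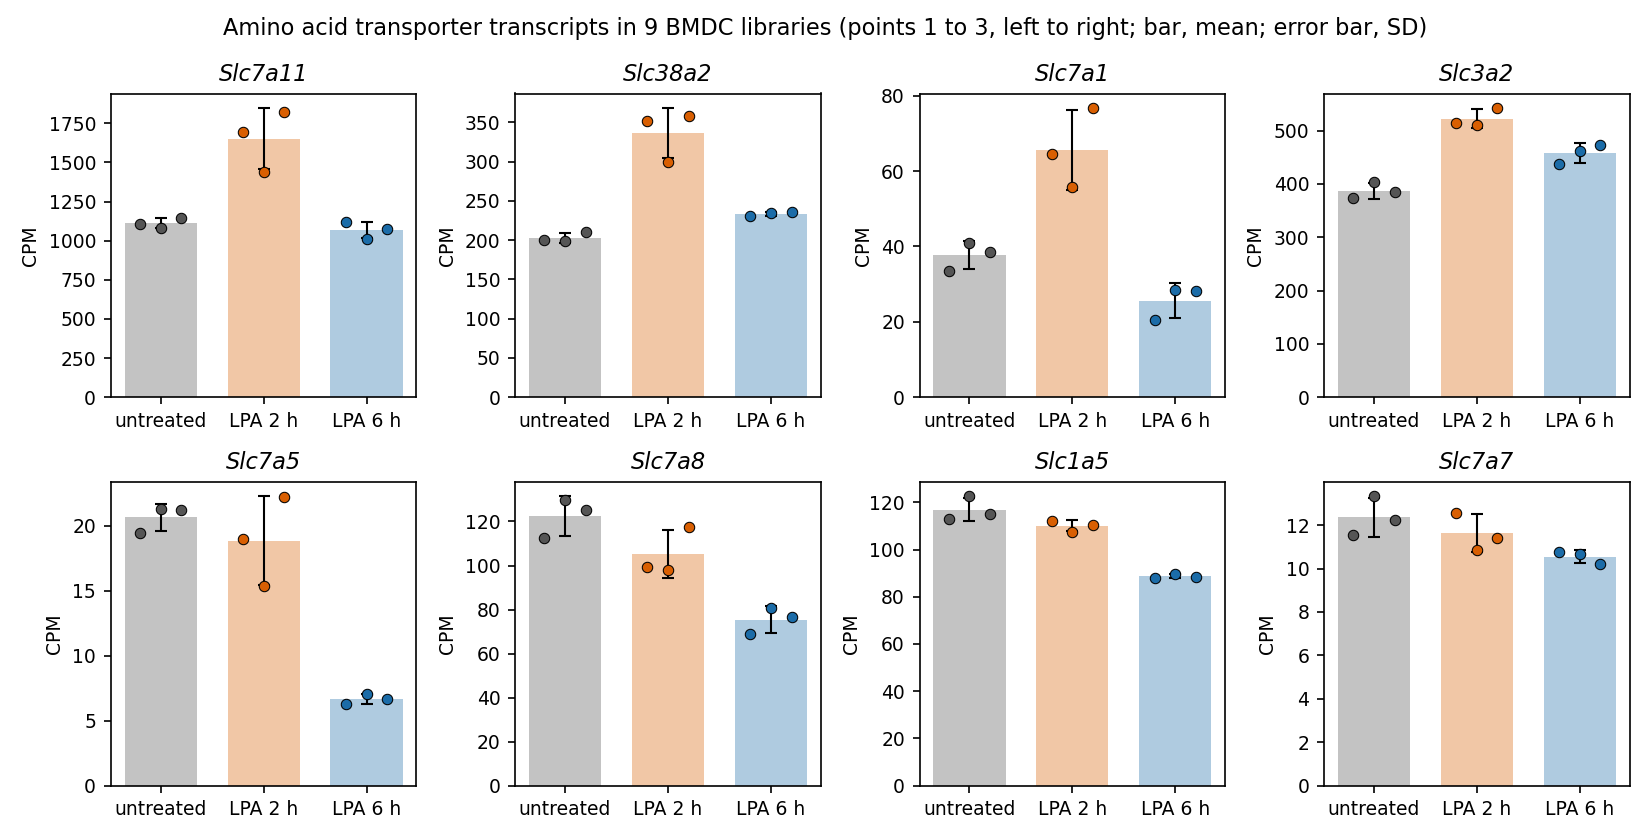
CPM of the 8 transporter genes in each library (points, replicates 1 to 3 from left to right), with the group mean as the bar and the SD over 3 libraries as the error bar. In the upper row the 2 h libraries are the highest, and in the lower row the 6 h libraries are the lowest, with Slc7a5 at 6.24 to 7.03 CPM.

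Slc7a5, the leucine-preferring LAT1 light chain (chr8:121881150-121907694), had the largest fall of the 8 at 6 h. It had 19.4, 21.3 and 21.2 CPM in untreated cells, 19.0, 15.4 and 22.2 CPM at 2 h, and 6.24, 7.03 and 6.66 CPM at 6 h. The untreated and 2 h libraries overlapped, and every 6 h library was below every other library. At 2 h the change was -0.14 ± 0.11 and did not pass (adjusted p = 0.354), although it was -0.27 and passed without the third 2 h library (adjusted p = 0.0323) and was -0.0065 without the second (adjusted p = 0.96). At 6 h it was -1.63 ± 0.12, or 0.323 of untreated (adjusted p = 1.05e-06), and from 2 h to 6 h -1.49 ± 0.12 (adjusted p = 1.39e-05).

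Slc7a8, the related LAT2 light chain (chr14:54722209-54781946), had 112, 129.6 and 125 CPM in untreated cells, 99.3, 98.2 and 118 CPM at 2 h, and 68.9, 80.7 and 76.6 CPM at 6 h. The third 2 h library lay within the untreated range, and the 6 h libraries were below all others. The 2 h change of -0.22 ± 0.08 had an adjusted p of 0.0522, close to the threshold, and passed under 9 of 19 alternative settings, for example with DESeq2 (adjusted p = 0.0245) and without the third 2 h library (adjusted p = 0.00592), the first untreated library (0.03) or the first 6 h library (0.0462). Without the second 2 h library it was -0.18 and did not pass (adjusted p = 0.167). At 6 h Slc7a8 was at 0.616 of untreated (-0.70 ± 0.08, adjusted p = 3.97e-05). It was also below its 2 h level (-0.48 ± 0.08, adjusted p = 0.00082).

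Slc1a5, the glutamine exchanger (chr7:16781340-16798274), had the tightest replicates among the 5 transporters that were lower at 6 h. It had 113.0, 122 and 115 CPM in untreated cells, 112, 108 and 111 CPM at 2 h, and 88.0, 89.8 and 88.3 CPM at 6 h. The 3 groups did not overlap, yet the 2 h change of -0.09 ± 0.04 did not pass (adjusted p = 0.133), nor did that of -0.07 without the second 2 h library (adjusted p = 0.256). At 6 h it had fallen to 0.759 of untreated (-0.40 ± 0.04, adjusted p = 1.1e-05), and it was lower than at 2 h (-0.31 ± 0.04, adjusted p = 0.000154).

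Slc7a7, the y+LAT1 light chain (chr14:54369442-54417780), moved least among the 5 genes that were lower at 6 h. It had 11.5, 13.3 and 12.2 CPM in untreated cells, 12.6, 10.9 and 11.4 CPM at 2 h, and 10.8, 10.7 and 10.2 CPM at 6 h. Untreated and 2 h libraries overlapped, and the 6 h libraries lay just under both. The change was -0.09 ± 0.08 at 2 h (adjusted p = 0.363, or -0.044 without the second 2 h library, adjusted p = 0.697) and -0.23 ± 0.08 at 6 h (0.851 of untreated, adjusted p = 0.0235). The 6 h call was lost without the second or the third untreated library (adjusted p = 0.101 and 0.0519) and without the second or the third 6 h library (0.0535 and 0.0889). From 2 h to 6 h the change of -0.14 ± 0.08 did not pass (adjusted p = 0.157). Of its 2132 exon bases, 232 overlap Oxa1l, a mitochondrial insertase gene on the opposite strand. The libraries are not stranded, so reads there cannot be assigned. Oxa1l had 34.7 ± 0.92 CPM (SD) in untreated cells and 38.8 ± 0.49 at 6 h and moved the other way (log2 0.16 ± 0.05, adjusted p = 0.0205). No other transporter of the 8 had an exon overlap with another gene.

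Levels between genes were compared per kilobase of exon. Slc3a2 was the highest in untreated cells at 132 ± 5.22 CPM per kb (SD, n = 3), followed by Slc7a11 at 98.9 ± 2.82, Slc38a2 at 43.6 ± 1.36, Slc7a8 at 29.98 ± 2.19 and Slc1a5 at 28.1 ± 1.19. Slc7a7 (5.80 ± 0.42), Slc7a5 (5.56 ± 0.28) and Slc7a1 (4.999 ± 0.491) came far below. The libraries of Slc7a8 and Slc1a5 overlapped, as did those of each pair among Slc7a7, Slc7a5 and Slc7a1. Among 13862 genes ranked by CPM per kb, Slc3a2 was at place 384, Slc7a11 at 513, Slc38a2 at 1179 and Slc7a1 at 6839. With LPA the order of the 3 low genes changed. Slc7a1 stood at 8.72 ± 1.41 CPM per kb at 2 h, above Slc7a7 (5.45 ± 0.41) and Slc7a5 (5.08 ± 0.92), and at 6 h Slc7a5 was last at 1.79 ± 0.11, below Slc7a1 at 3.41 ± 0.61. Slc7a5 moved from place 6510 in untreated cells to 9363 at 6 h. The orders of Slc7a8 and Slc1a5, and of Slc7a7 and Slc7a5 in untreated cells, depend on the length used. With the longest transcript of each row, Slc1a5 stood at 41.6, 39.2 and 31.6 CPM per kb in untreated, 2 h and 6 h cells, and Slc7a5 at 5.86 in untreated cells. Slc7a11 then stood at 121, 179 and 116 and Slc3a2 at 138, 186 and 163.

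Because Slc3a2 serves all 4 light chains, each was set against it within a library, which does not depend on library scaling. In untreated cells there were 0.752 Slc7a11 transcripts for each Slc3a2 transcript, by CPM per kb, 0.227 of Slc7a8, 0.0440 of Slc7a7 and 0.0422 of Slc7a5. With the longest transcripts as lengths, the Slc7a11 value was 0.877, and 0.960 at 2 h, against 0.823 by exon union. The log2 ratio of Slc7a11 to Slc3a2 was -0.41 ± 0.09 (SD) in untreated cells, -0.28 ± 0.14 at 2 h and -0.71 ± 0.12 at 6 h. Untreated and 2 h libraries overlapped in this ratio, and the 6 h libraries were below both. The ratio of Slc7a8 went from -2.14 ± 0.06 to -2.79 ± 0.10 and -3.08 ± 0.08, with no overlap between the groups. That of Slc7a7 went from -4.51 ± 0.05 to -5.03 ± 0.12 and -4.97 ± 0.10, where the 2 h and 6 h libraries overlapped. That of Slc7a5 went from -4.57 ± 0.04 to -5.14 ± 0.22 and -6.44 ± 0.06, which left 0.0115 Slc7a5 transcripts per Slc3a2 transcript at 6 h. Each ratio also falls when Slc3a2 rises. At 2 h Slc3a2 was higher by 0.43 on the log2 scale. Slc7a8, Slc7a7 and Slc7a5 then changed by -0.22, -0.09 and -0.14, and none of them was called.

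The 4 light chains together summed to 137, 140.02 and 144 CPM per kb in untreated libraries, to 186, 161 and 202 in 2 h libraries, and to 123, 117 and 121 in 6 h libraries. Slc7a11 made up 72.1%, 68.8% and 70.8% of the sum of 4 in untreated cells, 81.0%, 79.3% and 80.2% at 2 h, and 80.9%, 77.2% and 79.0% at 6 h. The share of Slc7a11 in this sum was thus higher in every LPA library than in any untreated one. At 2 h Slc7a11 itself was higher, and at 6 h the other light chains in the sum were lower. These are RNA ratios and were not tested. How much of each protein is at the surface was not measured.

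**Figure D3:**
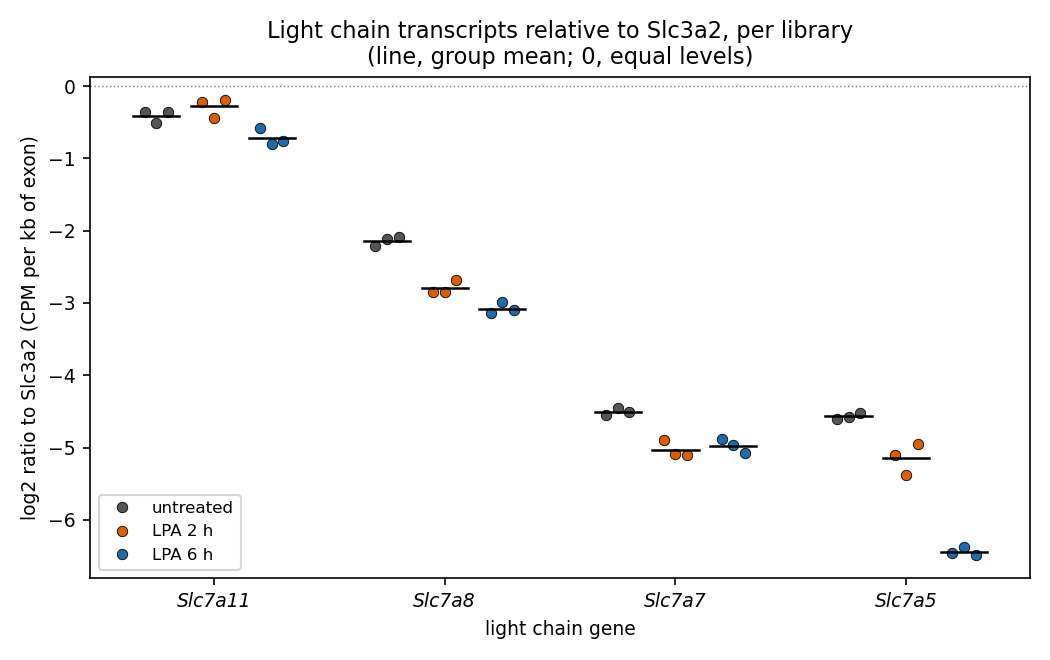
Log2 ratio of each light chain transcript to Slc3a2 in CPM per kb of exon, per library, with the group mean as a line and equal levels at 0. Slc7a11 stays within 1 log2 unit of Slc3a2 in all libraries, while Slc7a5 goes from -4.57 in untreated cells to -6.44 at 6 h.

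Over the 9 libraries, log2 CPM of Slc7a11, Slc38a2, Slc3a2 and Slc7a1 correlated with each other at r of 0.556 to 0.926 in 6 pairs. For Slc7a5, Slc7a8, Slc1a5 and Slc7a7 it was 0.775 to 0.975 in 6 pairs, and between these sets of 4 it was -0.308 to 0.761 in 16 pairs. The points share libraries and 3 group means, so these values describe the pattern only. The second 2 h library lay below the other two for every one of the 8, from 0.05 log2 units for Slc3a2 and Slc1a5 to 0.41 for Slc7a5. Among tested genes with at least 10 CPM and 1.5-fold between group means, those most like each transporter over the 9 libraries were Ptpn14 (r = 0.989) and Rcl1 (0.986) for Slc7a1, and Pcx (0.999) and Ran (0.998) for Slc7a5. For Slc7a8 they were Fdps (0.996) and Acsl1 (0.995), for Slc7a11 St8sia4 (0.992) and Pik3c2a (0.990), and for Slc3a2 Odc1, the first enzyme of polyamine synthesis (0.995), and Mafk (0.986). They were Fam117b (0.997) and Ndel1 (0.996) for Slc38a2, Acot7 (0.995) and Slc2a6 (0.991) for Slc1a5, and Psmb9 (0.870) and Tubb6 (0.864) for Slc7a7.

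A list of 46 other amino acid transporter genes gave the 8 their setting. Of these 25 were tested, and the 21 that were not stayed at or under 0.197 CPM in every library. At 2 h 6 rose and 5 fell (median log2 change 0.05), and at 6 h 7 were higher and 6 lower (median 0.06). The called shares of 44.0% and 52.0% were near the 38.5% and 52.0% of all genes. Among those that reached 5 CPM, the largest change at 2 h was in Slc1a4, a neutral amino acid exchanger (ASCT1) related to Slc1a5. It went from 2.38 ± 0.10 CPM (SD) to 6.61 ± 0.45 at 2 h (1.47 ± 0.11 on the log2 scale, adjusted p = 8.02e-07) and was at 2.49 ± 0.28 at 6 h (adjusted p = 0.668). Slc1a4 and Slc1a5 were thus called at different times, and Slc1a4 at 0.605 ± 0.025 CPM per kb was far lower than Slc1a5 in untreated cells. The lysosomal proton-coupled transporter Slc36a1 fell at 2 h, from 141 ± 3.55 to 81.5 ± 11.7 CPM (-0.79 ± 0.08, adjusted p = 2.05e-05), and was at 138 ± 2.56 at 6 h (adjusted p = 0.812). Its relatives split at 2 h, with Slc36a4 higher (0.36 ± 0.06, adjusted p = 0.000312) and Slc36a2 lower (-0.34 ± 0.06, adjusted p = 0.0014).

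Several other transporters were higher at 6 h, unlike Slc7a5. Slc16a10 (TAT1), which lets aromatic amino acids out of or into cells down their gradient, went from 36.0 ± 1.94 CPM to 48.7 ± 9.96 at 2 h and 83.5 ± 3.95 at 6 h (1.21 ± 0.13, adjusted p = 4.8e-05). Its 2 h change of 0.44 ± 0.13 (adjusted p = 0.0222) was 0.26 without the second 2 h library (adjusted p = 0.00628), and it missed the threshold without the first or the third untreated library (adjusted p = 0.0722 and 0.0679) and without a filter on low counts (0.0733). The lysosomal cystine exporter Ctns rose from 41.3 ± 0.25 to 69.5 ± 1.96 CPM at 6 h (0.75 ± 0.06, adjusted p = 1.87e-06) and Pqlc2, the lysosomal exporter of cationic amino acids, by 0.65 ± 0.10 (adjusted p = 0.000244). Slc7a6 (y+LAT2), a further light chain of Slc3a2 with the exchange activity of Slc7a7, rose by 0.39 ± 0.05 (adjusted p = 8.56e-05). It had 5.36 CPM per kb in untreated cells and 7.03 at 6 h, where Slc7a7 had 5.80 and 4.95. Lower at 6 h were the glycine transporter Slc6a9 (-0.65 ± 0.11, adjusted p = 0.00046) and Slc43a2 (LAT4), which carries leucine without a heavy chain (-0.37 ± 0.08, adjusted p = 0.00284).

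Other changes in that list were small or less stable. The taurine transporter Slc6a6, with 147 ± 2.41 CPM per kb above Slc3a2 in untreated cells, was lower at 6 h (-0.24 ± 0.04, adjusted p = 0.000396). Its 2 h change of -0.13 (adjusted p = 0.0206) was lost without the first or the third untreated library (adjusted p = 0.0734 and 0.0644), without a filter (0.0586) and with only the 6 libraries compared (0.067). The 2 h change of Slc43a2, -0.24 (adjusted p = 0.0342), was lost without the second untreated library (0.129) or without any one of the 2 h libraries (0.0975, 0.0839 and 0.08) or without a filter (0.0862). Slc38a6, a relative of Slc38a2, had 358 ± 57.8 CPM in untreated cells and 545 ± 75.1 at 2 h (0.61 ± 0.16, adjusted p = 0.0215), a call lost without the second or the third untreated library (0.056 and 0.0636) and without the first or the third 2 h library (0.0619 and 0.053), and without a filter (0.0518). At 6 h its change of 0.38 did not pass (adjusted p = 0.0896) but did with the replicate number as a block (adjusted p = 1.64e-05). Slc38a1 (SNAT1), a closer relative, was lower at 6 h by -0.18 ± 0.05 (adjusted p = 0.0124, and 0.0544 without the second 6 h library). The lysosomal Slc38a7 was higher by 0.17 ± 0.06 (adjusted p = 0.022), a call lost without the first or the third untreated library (0.0634 and 0.0753) or the second or the third 6 h library (0.108 and 0.064). Slc7a2, the inducible arginine transporter of macrophages, was chosen after its values were seen. It had 35.9 ± 7.06 CPM per kb in untreated cells, 33.9 ± 6.67 at 2 h and 33.5 ± 9.48 at 6 h, above Slc7a1 in all groups, and was not called.

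**Figure D4:**
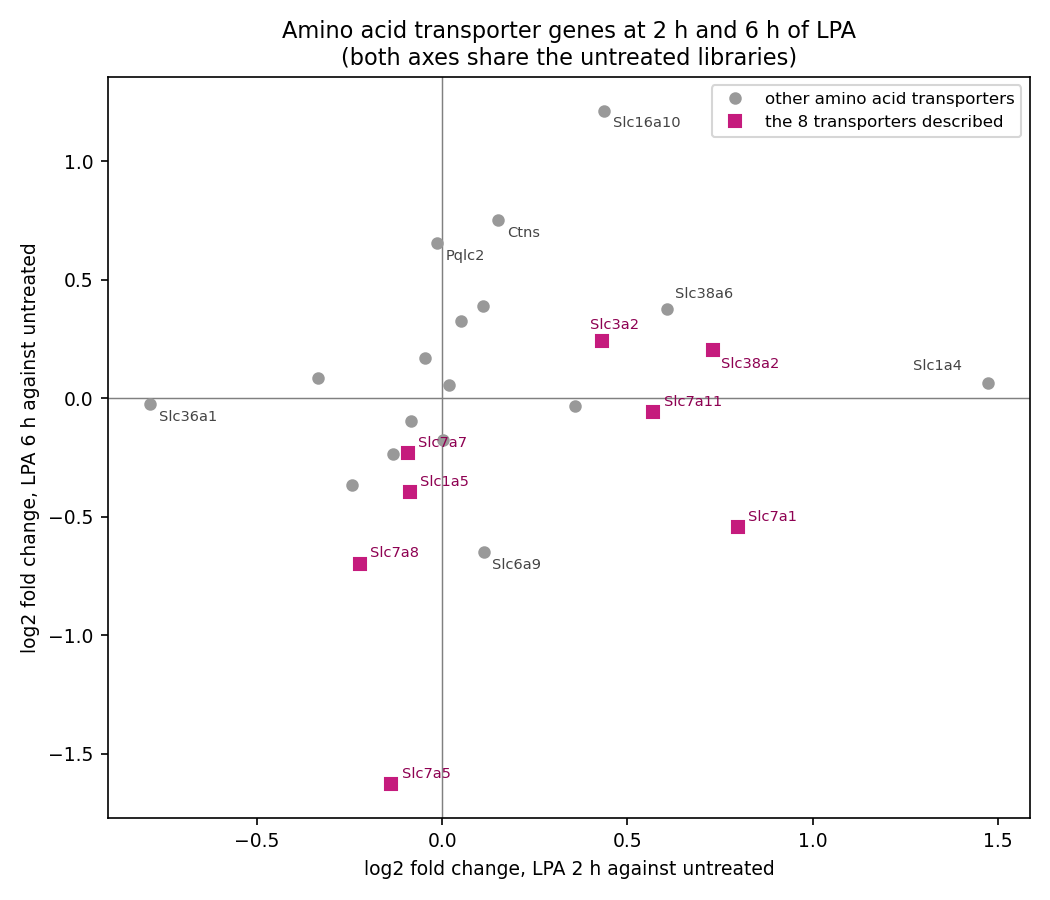
Log2 fold change at 2 h against that at 6 h for the 8 transporters (squares) and the 17 of 25 other tested amino acid transporter genes that reached 5 CPM in a group (circles). Both axes use the same untreated libraries. Slc7a5 lies lowest, Slc16a10 highest and Slc1a4 furthest right.

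ATF4, the transcription factor of the integrated stress and amino acid responses, is known to act on Slc7a11, Slc3a2, Slc38a2, Slc7a1, Slc7a5 and Slc1a5. Of 23 tested genes of this axis, 9 were higher and 3 lower at 2 h (median log2 change 0.13), and 9 were higher and 5 lower at 6 h (median 0.03). From 2 h to 6 h 14 fell and 5 rose (median -0.42). In all 52.2%, 60.9% and 82.6% of the list were called, where all genes gave 38.5%, 52.0% and 48.7%. Atf4 itself went from 168 ± 6.49 CPM to 246 ± 17.1 at 2 h (0.56 ± 0.06, adjusted p = 3.06e-05) and 200.1 ± 15.6 at 6 h (0.26 ± 0.06, adjusted p = 0.00509). Ddit4, an mTORC1 inhibitor, had 3.43 ± 0.60, 21.3 ± 3.51 and 10.4 ± 0.88 CPM (2.62 ± 0.15 at 2 h, adjusted p = 5.6e-07, and 1.61 ± 0.15 at 6 h, adjusted p = 1.09e-05). Sesn2, a leucine sensor, had 32.4 ± 1.2, 51.3 ± 3.18 and 32.1 ± 2.77 CPM, higher at 2 h (0.66 ± 0.07, adjusted p = 1.03e-05) and at its untreated level at 6 h (-0.01, adjusted p = 0.951). Trib3 and the glutathione-degrading Chac1 also rose at 2 h, by 1.76 ± 0.15 and 1.49 ± 0.22 (adjusted p = 1.78e-05 and 0.000223). Chac1 was low throughout, at 0.82 ± 0.14, 2.33 ± 0.38 and 0.62 ± 0.23 CPM in untreated, 2 h and 6 h cells.

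Not all genes of that axis moved with these. Asns, asparagine synthetase, did not pass at 2 h (0.17 ± 0.16, adjusted p = 0.437). At 6 h it was at -0.33 ± 0.16 (adjusted p = 0.117), which passed with the replicate number as a block (adjusted p = 0.0107) and with DESeq2 (0.0427). Ddit3 (CHOP) did not pass at 2 h (-0.16, adjusted p = 0.0638) or at 6 h (-0.08, adjusted p = 0.297). It was called at 2 h without the third untreated library (adjusted p = 0.0372) or the second 2 h library (0.0315). Eif2ak2 (PKR), a kinase upstream of ATF4 and also an interferon-induced gene, was lower at both times (-0.42, adjusted p = 0.00105, and -1.27 ± 0.08, adjusted p = 3.08e-07). Of the serine synthesis genes Psat1, Phgdh and Psph, each was called lower at 6 h and not called at 2 h. These 3 were chosen after their values were seen.

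**Figure D5:**
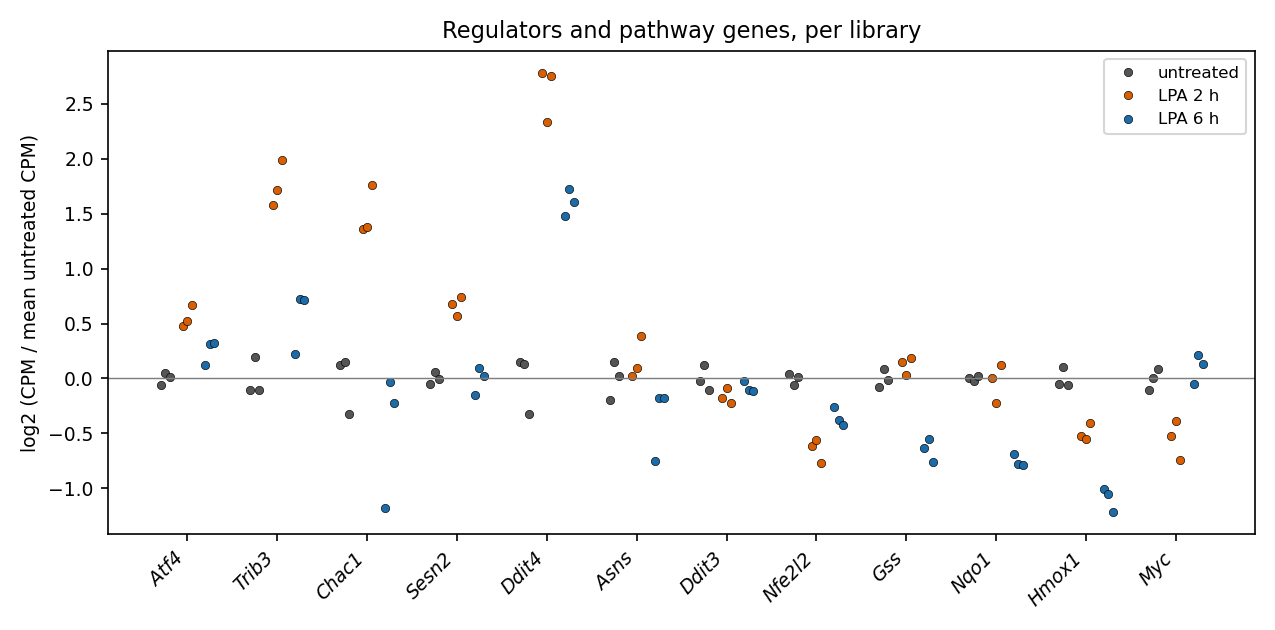
Log2 of CPM over the untreated mean for regulators and pathway genes, per library (points) in untreated, 2 h and 6 h cells. Ddit4, Trib3 and Chac1 are the highest at 2 h, Hmox1, Nqo1 and Gss lie under 0 in all 3 libraries at 6 h, and Nfe2l2 and Myc lie under 0 at 2 h.

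NRF2 (Nfe2l2) and MYC are further known activators of these transporters, of Slc7a11 and of Slc7a5 and Slc1a5 respectively. Nfe2l2 RNA was lower at both times, at 469 ± 16.2, 299 ± 22.4 and 367 ± 22.0 CPM (-0.65 ± 0.06 at 2 h, adjusted p = 6.4e-06, and -0.35 ± 0.06 at 6 h, adjusted p = 0.000396). Keap1, which holds NRF2 inactive, was lower too (-0.19 at 2 h, adjusted p = 0.0061, and -0.39 at 6 h, adjusted p = 2.01e-05). Myc had 16.6 ± 1.12, 11.4 ± 1.38 and 17.8 ± 1.65 CPM, lower at 2 h (-0.54 ± 0.09, adjusted p = 0.000744) and not called at 6 h (0.11, adjusted p = 0.359). Tfeb, a regulator of lysosomal and amino acid genes, fell to 22.2 CPM from 44.6 at 2 h (-0.997 ± 0.093, adjusted p = 1.05e-05) and was at 33.2 at 6 h (-0.42, adjusted p = 0.00259). Of the 14 tested factors of this list, 4 were higher and 7 lower at 2 h, and 1 was higher and 7 lower at 6 h, which is 78.6% and 57.1% called against 38.5% and 52.0% of all genes.

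Cystine brought in by Slc7a11 supplies cysteine for glutathione. In a list of glutathione, cystine handling and related redox genes, 3 of 15 tested genes rose and 3 fell at 2 h (median 0.08), and at 6 h 1 was higher and 11 were lower (median -0.55). Called shares were 40.0% at 2 h, near the 38.5% of all genes, and 80.0% at 6 h, against 52.0%, with 25.7% of all genes lower. Gss, glutathione synthetase, was at 151, 165 and 96.8 CPM (-0.65 ± 0.06 at 6 h, adjusted p = 4.69e-06). Nqo1 and Hmox1 fell by 0.75 and 1.09 on the log2 scale at 6 h (SE 0.07 each, adjusted p = 5.52e-06 and 1.7e-07). Hmox1 was lower already at 2 h (-0.49, adjusted p = 9.6e-05), and Nqo1 was not called then (-0.03, adjusted p = 0.802). The 3 genes of this list that rose at 2 h were Gclc (0.43 ± 0.08, adjusted p = 0.0017), Srxn1 (0.43 ± 0.07, adjusted p = 0.000426) and Gpx4 (0.19 ± 0.05, adjusted p = 0.0156). At 6 h Gclc and Srxn1 were lower (-0.90 and -0.55, adjusted p = 6.46e-06 and 3.75e-05), and Gpx4 was higher (0.15, adjusted p = 0.0309). Gclm was not called at 2 h (adjusted p = 0.315) and was lower at 6 h (-1.61, adjusted p = 6.28e-06). These genes were named after their values were seen. Slc7a11 itself was not called at 6 h.

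Cytosolic aminoacyl-tRNA synthetases load the imported amino acids onto tRNA, and several are ATF4 targets. All 20 were tested, 2 were higher and 4 lower at 2 h (median -0.07), and 3 were higher and 13 lower at 6 h (median -0.22). That is 6 of 20 called at 2 h, where all genes gave 38.5%, and 16 of 20 (80.0%) at 6 h, where they gave 52.0%. At 6 h Farsb (phenylalanine) was at -0.67 ± 0.06 (adjusted p = 3.64e-06), Kars (lysine) at -0.53 ± 0.06 (adjusted p = 7.58e-06) and Iars (isoleucine) at -0.48 ± 0.06 (adjusted p = 1.8e-05). In the list of amino acid sensing upstream of mTORC1, 31 were tested, with 4 higher and 6 lower at 2 h, and 11 higher and 5 lower at 6 h (median 0.07), where 32.3% and 51.6% called were near the shares of all genes. Castor1, a cytosolic arginine sensor, rose from 3.26 ± 0.41 CPM to 10.2 ± 2.34 at 2 h (1.65 ± 0.16, adjusted p = 2.3e-05) and 17.4 ± 1.26 at 6 h (2.41 ± 0.16, adjusted p = 1.09e-06). Of the arginine transporters, Slc7a1 was higher at 2 h and lower at 6 h. Slc7a2, with more CPM per kb than Slc7a1 in all groups, was not called at either time (adjusted p = 0.839 and 0.792). Rragd, a Rag GTPase of the lysosomal surface, was higher at 6 h (1.46 ± 0.16, adjusted p = 2.35e-05). Bmt2, the S-adenosylmethionine sensor SAMTOR, was lower at both times (-0.66 ± 0.05 and -0.58 ± 0.05, adjusted p = 1.09e-06 and 2e-06).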

How the data were processed

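RNA was extracted with RNeasy MinElute and libraries made by a non-stranded TruSeq protocol, per the labels' protocols. The authors deposited 1 table of estimated counts for 9 libraries, rounded to whole numbers. They used RSEM 1.2.3, DESeq2 and mm10, per the submitters' processing notes. Which aligner and annotation release were used is not given in the sources used here. Rows carry Ensembl transcript identifiers, and 37776 of 38887 rows (98.46% of counts) matched 1 gene of GENCODE M21 (GRCm38, the assembly mm10 names). RSEM divides ambiguous reads among transcripts, so overlapping or near-identical genes depend on that division.

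Genes were filtered with filterByExpr (minimum count 10, total 15). All 9 libraries entered 1 fit with a mean per group in edgeR 4.0.16 (R 4.3.3; TMM, glmQLFit robust, glmQLFTest). SE is the log2 fold change over the square root of F. Exon length is the union of the row's transcripts. The code was tested on simulated data. Same-numbered libraries deviated together for 6 h against untreated (r of 0.178, 0.144 and 0.151, over 0.1 in each pair) but not in all pairs of the other comparisons. The labels state no pairing. Differently numbered libraries were not compared in this way, so the check cannot tell whether libraries were paired. No library repeated another: chi-square over its degrees of freedom was 7.23 to 33.3 for pairs of replicates.

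The 8 transporters and all lists were chosen with earlier results of these data known. Besides the 8, genes were named by rule. Other transporters were the 4 largest rises and falls per comparison with untreated among called genes of at least 5 CPM, and called genes of at least 50 CPM. Each other list gave its 3 smallest p-values, and Atf4, Ddit3, Trib3, Asns, Chac1, Nfe2l2 and Myc were always named. The 2 genes most like each transporter were also named. Alternatives were other scalings, DESeq2 1.42.0, limma-voom (limma 3.58.1), other filters, a replicate block, only the compared libraries, summed rows, each library left out and another gene length. A further marker list is not reported here.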

Additional observations from a re-analysis of the deposited data

Results flagged for a closer look

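For 7 of the 8 transporters the change from untreated cells differed between 2 h and 6 h, by the test of 6 h against 2 h in the fit over all genes (edgeR, adjusted p under 0.05, where 48.7% of all genes were called). The log2 difference, 6 h minus 2 h, was -1.49 for Slc7a5, -1.34 for Slc7a1, -0.63 for Slc7a11, -0.53 for Slc38a2, -0.48 for Slc7a8, -0.31 for Slc1a5 and -0.19 for Slc3a2. All 7 were lower at 6 h than at 2 h, in 3 of 3 libraries each.

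Among other transporters the difference was -1.41 for Slc1a4, -0.76 for Slc6a9, -0.39 for Slc36a4 and -0.18 for Slc38a1. It was 0.78 for Slc16a10, 0.76 for Slc36a1, 0.67 for Pqlc2, 0.60 for Ctns, 0.42 for Slc36a2, 0.28 for Slc7a6 and 0.22 for Slc38a7. In the amino acid response it was -1.83 for Chac1, -1.18 for Trib3, -1.02 for Ddit4, -0.84 for Eif2ak2, -0.67 for Sesn2, -0.50 for Asns and -0.30 for Atf4. Of these, Asns was lost without the second or the third 2 h library (adjusted p = 0.0655 and 0.1) and without a filter (0.0968), and Slc38a1 without the second 6 h library (adjusted p = 0.0564) and with total counts only (0.0512). Among synthetases it was -0.42 for Kars, -0.39 for Farsb and -0.26 for Iars, and among sensors 1.05 for Rragd and 0.76 for Castor1. For Gss, Nqo1 and Hmox1 it was -0.77, -0.72 and -0.60. The factors Myc, Tfeb and Nfe2l2 stood at 0.65, 0.57 and 0.29, and Keap1 at -0.20.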

How the results depend on the processing

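The 24 log2 fold changes of the 8 transporters were recomputed under 19 alternatives each. Of the 456 values 438 kept their direction and side of the threshold, 8 missed it, 10 newly passed it and 0 reversed. The calls lost or gained are given beside each gene. Transporters called numbered 4 at 2 h (4 to 5 under other settings, 4 to 6 with a library left out), 7 at 6 h (6 to 7, and 4 to 7, with 4 without the second untreated library) and 7 between the times under all 19. Genes changed were 5525 at 2 h (4865 to 6135, and 4352 to 5580 with a library left out), 7472 at 6 h (7111 to 8044, and 6226 to 7896) and 6991 between the times (6533 to 7588, and 5767 to 7425). In the fit with a replicate block, 6135, 8036 and 7588 genes and 5, 7 and 7 transporters were called. For 6 h against untreated, where r of same-numbered libraries was over 0.1 in each pair, the block changed only the calls of Slc38a6 and Asns among the 43 genes followed. In the other comparisons r was positive in each pair but over 0.1 in only part of them (0.165, 0.09 and 0.184 at 2 h). There the block added, among the 8, Slc7a8 at 2 h (adjusted p = 0.0123). Scaling moved the median gene by at most 0.053 on the log2 scale, with total counts only from 2 h to 6 h. There 59.1% of calls were higher (4210 against 2912), where TMM gave 49.96%. With the longest transcript as length, Slc1a5, Slc7a11 and Slc3a2 in all groups and Slc7a5 in untreated cells moved beyond their spread. Slc7a5 at 190 to 1408 counts and Slc7a7 at 328 to 919 had the fewest counts of the 8.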
